A study of Mus musculus with 2 samples.

Results

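The CSF1 receptor and its ligands were examined as 5 genes: the ligands Csf1 and Il34, their shared receptor Csf1r, and the GM-CSF receptor chains Csf2ra and Csf2rb. All 5 of these genes, among 31053 in the matrices, had unique molecular identifiers (UMIs, tags that count each captured transcript once) in kept cells. They were chosen by name, and none of them served as a marker for any cell class used here.

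The cells came from small subcutaneous tumours of B16F10, an established mouse melanoma line, grown in 11-week-old hosts. WT hosts were Atf4 WT/WT and KO hosts Atf4 Δ/Δ, and the methods give both as carriers of Rosa26::CreERT2, a ubiquitously expressed inducible recombinase, on a C57BL/6 background, with tamoxifen given to both genotypes. The injected melanoma cells themselves were not deleted for Atf4, a transcription factor of the integrated stress response. Each genotype was 1 droplet library that pooled 2 tumours, so no test between genotypes was possible, and intervals (95%) cover counting error only.

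CSF1 and IL-34 are cytokines that bind the same receptor tyrosine kinase, CSF1R, on which most tissue macrophages depend for survival. IL-34 is best known from keratinocytes and neurons, and CSF1 from fibroblasts and other mesenchymal cells. GM-CSF signals through a different receptor, made of the alpha chain encoded by Csf2ra and the common beta chain encoded by Csf2rb, which IL-3 and IL-5 also use. In the mouse a neighbouring gene, Csf2rb2, encodes a second beta chain that serves IL-3.

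Cells were assigned to classes by marker gates: a host cell entered a gate when at least 3 of its lineage's markers were detected, and a host-gated cell with many melanoma transcripts was set aside as mixed. The WT library kept 3861 cells and the KO library 3557, with a median of 3920 and 6279 UMIs per cell. The gates held 199 WT and 232 KO fibroblasts, 71 and 27 endothelial cells, 1688 and 1874 melanoma cells, 815 and 656 macrophages, and 301 and 244 monocytes. A further 126 and 46 myeloid cells could not be placed as macrophage, monocyte or dendritic by their markers, and 357 and 192 cells were mixed. The markers that made the gates cannot test them. As a description, the 7 macrophage markers summed to 14324 CPM (counts per 1e6 UMIs of the gate) in WT macrophages and 16966 in KO macrophages, against 22.6 and 27.1 in melanoma cells. In all, 10 barcodes occurred in both libraries, 1 of them among kept cells.

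Atf4 followed the labels. Its level was 266 CPM in WT fibroblasts and 41.8 in KO fibroblasts, and 177 and 42.8 CPM in macrophages. Melanoma cells held 227 CPM in WT hosts and 212 in KO hosts. The labels describe both pools as male and female, but UMIs of Y-linked genes were 0 in every gate of the WT library, whereas the KO macrophages held 125 and the KO fibroblasts 70. Values restricted to cells with Xist are therefore given beside the results they move.

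The Atf4 product belongs to the ATF/CREB family, so the 250 bases before the transcription start are shown for the members that had an entry in the RefSeq promoter table (build GRCm38.p6), which were 2 of the 5. They let a reader see which letters lie upstream of a ligand gene and a receptor gene whose levels are described below. The Csf1 stretch is chr3:107760470-107760719 and the Csf2ra stretch chr19:61228419-61228668, both on the minus strand, written 5′ to 3′ and ending just before the start. Capitals mark a cyclic AMP response element.
Csf1: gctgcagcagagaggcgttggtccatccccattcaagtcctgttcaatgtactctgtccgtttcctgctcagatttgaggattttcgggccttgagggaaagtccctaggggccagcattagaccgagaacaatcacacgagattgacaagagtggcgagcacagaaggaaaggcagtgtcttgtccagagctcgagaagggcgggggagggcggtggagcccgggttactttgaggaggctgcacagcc
Csf2ra: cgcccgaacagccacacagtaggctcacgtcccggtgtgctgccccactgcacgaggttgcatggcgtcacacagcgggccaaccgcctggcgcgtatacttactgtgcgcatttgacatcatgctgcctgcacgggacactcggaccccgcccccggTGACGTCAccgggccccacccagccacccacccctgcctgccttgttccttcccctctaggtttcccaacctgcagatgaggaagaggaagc

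A set of 3 motifs was searched on both strands of all 32851 promoters. The C/EBP-ATF response element core TGATGNAA was in 3.45% of them, the PU.1 core GAGGAAGT in 2.44%, and the cyclic AMP response element TGACGTCA, chosen after the sequences had been read, in 1.55%. Neither the first nor the second motif was present in the 2 stretches. The third was present once, 92 bases before the Csf2ra start, and its letters are the same on both strands. No motif overlapped another there, and a match describes letters, not binding.

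Csf1 transcripts lay mainly in fibroblasts. The gene occupies chr3:107741048-107760469 in GRCm38 and encodes the main growth factor of macrophages. Of 241 Csf1 UMIs in kept WT cells, 147 were in gated fibroblasts, which is 61.0% (54.5 to 67.2), and of 259 in kept KO cells 162 were, which is 62.5% (56.3 to 68.5). Melanoma cells held the next share, with 50 UMIs (20.7%) in WT and 67 (25.9%) in KO. Macrophages held 15 and 4, mixed cells 23 and 14, and endothelial cells 1 in each library. Thus both libraries had the same order of the 2 leading sources.

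**Figure D1:**
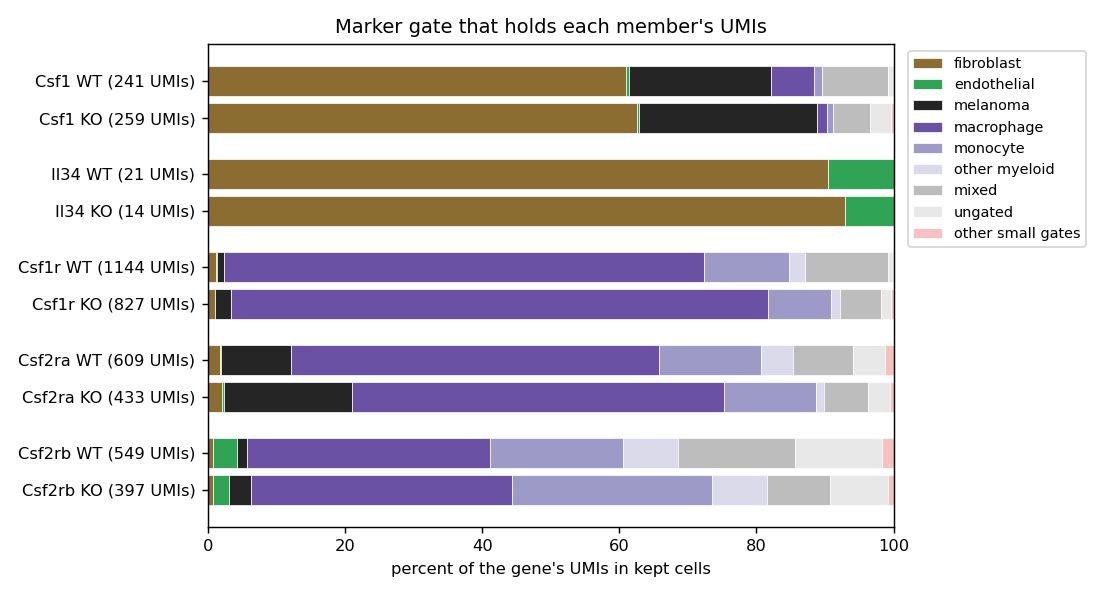
Horizontal bars give, for each member and library, the percent of its UMIs in kept cells that lay in each marker gate, with the number of UMIs beside the name. Fibroblasts hold 61.0% and 62.5% of the Csf1 UMIs in WT and KO, and macrophages hold 70.0% and 78.2% of the Csf1r UMIs.

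The Csf1 level in fibroblasts was 188 CPM (159 to 221) in WT and 174 CPM (148 to 203) in KO, a log2 KO/WT ratio of -0.11 (-0.45 to 0.22). The interval includes 0 and leaves out a 2-fold difference either way. At least 1 Csf1 UMI was found in 44.7% of WT and 38.8% of KO fibroblasts, and in 31.9% and 27.7% of them after each cell was thinned to 2000 UMIs. Macrophages, thinned alike, had a Csf1 UMI in 1.81% and 0.711% of cells. In WT 55 fibroblasts held 1 UMI, 21 held 2 and 13 held 3 or more, and in KO these numbers were 50, 22 and 18. The highest single cell held 6 UMIs in WT and 5 in KO, so no single cell set the level.

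Restricting cells by sex-linked transcripts changed the Csf1 ratio in fibroblasts. Fibroblasts with Xist and no Y-linked UMI held 126 Csf1 UMIs at 189 CPM in WT and 52 at 256 CPM in KO, a log2 ratio of 0.43 (-0.06 to 0.91). KO fibroblasts with a Y-linked UMI and no Xist, 21.1% of that gate, held 39 Csf1 UMIs at 148 CPM. The part of host sex in the Csf1 ratio was not tested.

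Among fibroblasts, Csf1 was spread over the subsets that marker lists define. In cells with at least 2 adventitial markers (Pi16, Clec3b, Dpp4, Igfbp6 and Sema3c, genes of adventitial fibroblasts) its level was 247 CPM in WT and 214 in KO, and in the other fibroblasts it was 159 and 157. Fibroblasts with at least 2 activated matrix markers held 182 and 159.7 CPM, and those with 0 or 1 held 229 and 223. The 18 WT and 12 KO fibroblasts with mural markers held 8 and 2 UMIs, which is 81.6 and 38.4 CPM with wide intervals (35.2 to 161 and 4.65 to 139). Within each subset the WT and KO intervals overlapped. The activated matrix markers summed to 4176 CPM in WT fibroblasts and 1909 in KO fibroblasts, while Csf1 differed little.

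Melanoma cells held Csf1 at a low level, 2.61 CPM (1.94 to 3.45) in WT hosts and 3.30 CPM (2.56 to 4.19) in KO hosts, a log2 ratio of 0.33 (-0.22 to 0.89). In WT fibroblasts there were 1.61 Csf1 UMIs per 100 UMIs of Col1a1, a collagen chain gene, whereas WT melanoma cells had 32.9 per 100, and KO cells 2.17 and 44.7. The part of free fibroblast RNA in the melanoma value was not tested. Macrophages held 6.74 CPM (3.77 to 11.1) in WT and 2.35 CPM (0.640 to 6.01) in KO, and endothelial cells, with 1 UMI in each library, allow no ratio.

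Il34 was rare and found in fewer places. The gene lies at chr8:110741829-110805924. Only 35 UMIs were counted in kept cells, 21 in WT and 14 in KO. Fibroblasts held 19 and 13 of them, which is 90.5% (69.6 to 98.8) and 92.9% (66.1 to 99.8), and endothelial cells held 2 and 1. Melanoma cells, macrophages, monocytes and mixed cells held 0 in both libraries, which allows a level of up to 0.157 CPM in WT and 0.148 CPM in KO melanoma cells. Hence Il34, unlike Csf1, was not detected in the injected cells at this depth.

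In fibroblasts the Il34 level was 24.3 CPM (14.6 to 38.0) in WT and 13.9 CPM (7.42 to 23.8) in KO, a log2 ratio of -0.80 (-1.94 to 0.29), so a difference was not detectable with these counts. A UMI was found in 15 of 199 WT fibroblasts and 11 of 232 KO fibroblasts, and 7 of these cells in each library also held Csf1. All 19 WT UMIs were in fibroblasts with at least 2 activated matrix markers, as were 10 of the 13 in KO, at 27.9 and 13.8 CPM. That subset made up 77.9% of WT and 67.2% of KO fibroblasts and had more UMIs per cell than the other fibroblasts, with medians of 4067 against 2165 in WT. Mural-marked cells held 2 and 1 of the Il34 UMIs.

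Csf1r was a transcript of macrophages and monocytes. The gene occupies chr18:61100598-61132149. Macrophages held 801 of 1144 WT UMIs (70.0%) and 647 of 827 KO UMIs (78.2%), monocytes 142 and 77, and mixed cells 139 and 50. Its level in macrophages was 359.9 CPM (335 to 386) in WT and 379.7 CPM (351 to 410.1) in KO, a log2 ratio of 0.08 (-0.07 to 0.23). A 2-fold difference lies outside this interval. Of the 3 members with at least 20 UMIs in macrophages, 0 differed by 2-fold or more. Of the 8870 genes with that many UMIs in the gate, 5.66% did.

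Monocytes held Csf1r at 344 CPM (289.9 to 406) in WT and 256 CPM (202 to 320.2) in KO. The log2 ratio was -0.43 (-0.85 to -0.02), just past 0 by counting error, and with 4 markers per gate it was -0.41 (-0.85 to 0.03). A difference between single libraries has no replicate check. In monocytes 8.83% of 4166 genes differed by 2-fold or more, and 0 of the 3 members did. In WT the intervals of macrophages and monocytes overlapped, so their order cannot be told, whereas in KO the macrophage interval lay above that of monocytes. The other myeloid cells held 134 CPM (88.5 to 195) and 165 CPM (79.2 to 304). Dendritic-gated cells, 15 in WT and 0 in KO, held 0 Csf1r UMIs, where a count of 3 in WT would be 109.5 CPM. The gate was narrow: when cells were clustered instead, the cluster named dendritic by its markers held 263 WT and 83 KO cells. Over both libraries that cluster held 78 Csf1r, 126 Csf2ra and 228 Csf2rb UMIs, so these cells lay mostly outside the dendritic gate.

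**Figure D2:**
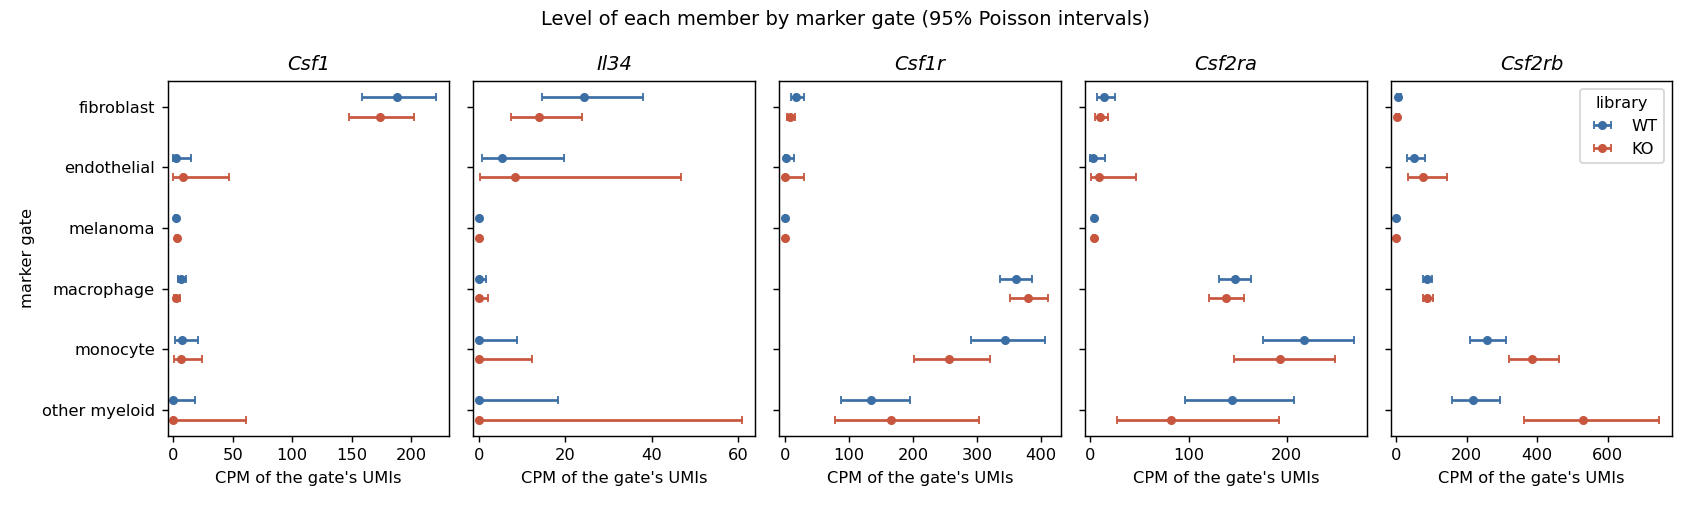
Each panel gives one member's level in CPM of the gate's UMIs for 6 marker gates, as points for WT and KO with 95% Poisson intervals. Csf1 and Il34 lie highest in fibroblasts, Csf1r at 359.9 and 379.7 CPM in macrophages, and Csf2rb at 257 and 386 CPM in monocytes.

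Outside the myeloid gates Csf1r was low. It was 0.575 CPM in WT and 0.984 CPM in KO melanoma cells. Per 100 UMIs of C1qa, a complement gene of macrophages, melanoma cells had 12.9 Csf1r UMIs in WT and 16.1 in KO. Macrophages had 10.3 and 8.31, monocytes 233 and 120.3, and fibroblasts 50 and 44.4. The part of myeloid RNA in the melanoma value was not tested. Fibroblasts held 14 Csf1r UMIs in WT and 8 in KO, 17.9 and 8.58 CPM, with 28 and 18 C1qa UMIs beside them. The log2 ratio there was -1.06 (-2.52 to 0.29), which made it the 1 of 4 members past 2-fold in fibroblasts, where 11.3% of 7424 genes were. Free RNA, estimated from melanoma markers at the whole library's composition, came to 1.54 CPM of Csf1r in WT and 1.37 in KO fibroblasts. The myeloid markers in the same fibroblasts summed to 450.3 CPM in WT and 180.2 in KO, all 8 of them detected in both. The part of myeloid RNA in the Csf1r value was not tested.

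The macrophage gate was not uniform, and Csf1r was highest in the cells with most resident markers. Resident macrophages of connective tissue express Lyve1, Cd163, Folr2, Cd209f, Cbr2 and F13a1, and cells with at least 3 of these 6 made up 29.9% of gated macrophages in WT (26.8 to 33.2) and 47.6% in KO (43.7 to 51.5). Csf1r in these cells was 442 CPM in WT and 447 in KO. In macrophages with 0 of the markers it was 320.2 and 248 CPM, with 1 marker 309 and 264, and with 2 markers 305 and 317. The level at 3 or more markers lay above the other bins in both libraries, and the WT and KO intervals overlapped in each bin. Cells with more markers also had more UMIs, with medians of 3220 in WT and 3133 in KO at 3 or more markers against 1811 and 1559 at 0.

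**Figure D3:**
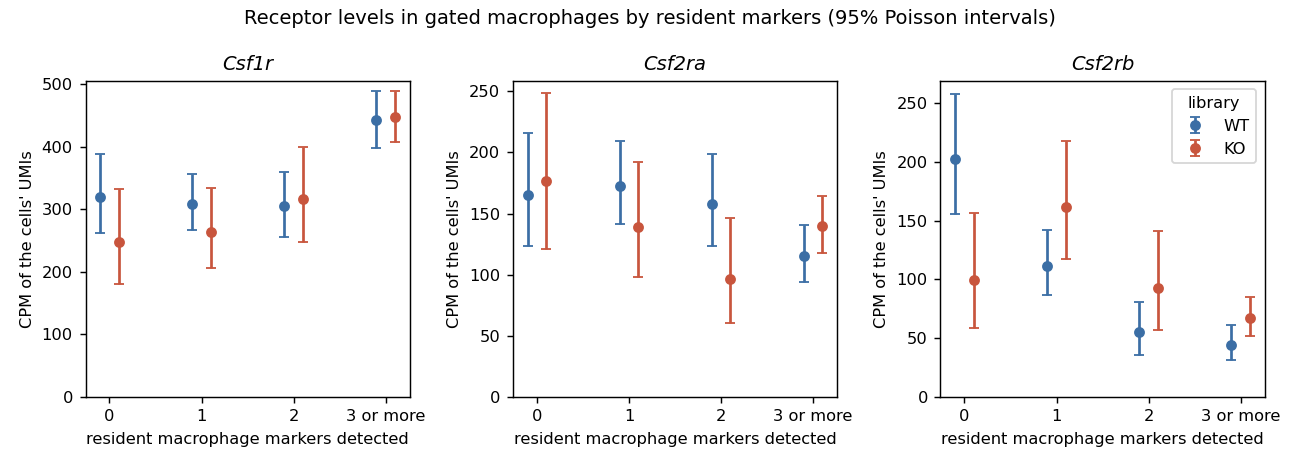
The 3 panels give the level of Csf1r, Csf2ra and Csf2rb, in CPM with 95% Poisson intervals, in gated macrophages with 0, 1, 2 and 3 or more of 6 resident markers detected. Csf1r is highest at 3 or more markers in WT (442 CPM) and KO (447 CPM), and Csf2rb is 202 CPM at 0 markers and 44.1 CPM at 3 or more in WT.

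Restricting cells by sex-linked transcripts also changed the Csf1r ratio in macrophages. Macrophages with Xist and no Y-linked UMI held 643 Csf1r UMIs (360.1 CPM) in WT and 64 (285 CPM) in KO, a log2 ratio of -0.34 (-0.73 to 0.04). KO macrophages with a Y-linked UMI and no Xist, 15.5% of that gate, held 403 CPM (336 to 479). The intervals of these 2 KO subsets overlapped. In monocytes the Xist-restricted log2 ratio was -0.72 (-1.83 to 0.23), on 87 and 10 UMIs. The restriction kept 52.8% of WT and 11.1% of KO monocytes. The restricted and full macrophage ratios had opposite signs, and each interval included 0.

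Detection per cell was compared at matched depth. A Csf1r UMI was found in 59.3% of WT and 53.4% of KO macrophages, and in 49.5% (45.3 to 53.8) and 46.9% (42.1 to 51.8) after thinning to 2000 UMIs, which left 553 and 422 cells. In fibroblasts thinned alike the shares were 1.20% and 2.05%. Monocytes were too shallow for that depth, since 32 WT and 9 KO cells remained. At 1000 UMIs, a depth chosen after this was seen, 31.1% (25.2 to 37.6) of 228 WT monocytes and 26.6% (19.9 to 34.2) of 158 KO monocytes had a Csf1r UMI.

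Csf2ra, the GM-CSF-binding alpha chain, lies at chr19:61223957-61228429. Macrophages held it at 147 CPM (131 to 164) in WT and 138 CPM (121 to 157) in KO, a log2 ratio of -0.09 (-0.34 to 0.15). Monocytes held 218 CPM (175 to 268) and 193 CPM (147 to 249.5), a log2 ratio of -0.18 (-0.68 to 0.32). Monocytes lay above macrophages in WT with intervals apart, and in KO the intervals overlapped.

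Melanoma cells held a small but countable number of Csf2ra UMIs, 62 in WT hosts and 81 in KO hosts, at 3.24 and 3.99 CPM. They made up 10.2% and 18.7% of all Csf2ra UMIs. Against C1qa this was 72.9 per 100 in WT and 65.3 in KO, which lay between the 4.20 and 3.02 of macrophages and the 148 and 90.6 of monocytes. The part of myeloid RNA in these UMIs was not tested. In melanoma cells 0 of the 4 members with at least 20 UMIs reached 2-fold between hosts, where 4.84% of 12182 genes did.

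Csf2rb, the shared beta chain, lies at chr15:78325752-78353847 and was higher in monocytes than in macrophages in both libraries, with intervals apart. Its level in macrophages was 87.6 CPM (75.8 to 101) in WT and 88.6 CPM (75.0 to 104) in KO, a log2 ratio of 0.02 (-0.30 to 0.33). In macrophages with Xist and no Y-linked UMI, 149 UMIs in WT and 13 in KO gave a log2 ratio of -0.53 (-1.47 to 0.29). In monocytes Csf2rb was 257 CPM (210.4 to 311) and 386 CPM (319 to 463), a log2 ratio of 0.59 (0.19 to 0.98), so KO monocytes lay above WT monocytes by more than counting error. At 1000 UMIs per cell 22.4% of WT and 33.5% of KO monocytes had a Csf2rb UMI, with intervals that overlapped (17.1 to 28.3 and 26.2 to 41.5). Of the 106 WT and 116 KO UMIs in monocytes, single cells held at most 3 and 4.

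The log2 ratio stayed above 0 in monocytes restricted by sex-linked transcripts. Monocytes with Xist and no Y-linked UMI held 245 CPM in WT and 477 CPM in KO, a log2 ratio of 0.96 (0.16 to 1.70). KO monocytes with a Y-linked UMI and no Xist held 10 UMIs at 324 CPM, and against the WT cells with Xist their log2 ratio was 0.40 (-0.73 to 1.39). Split by MHC class II genes, a division chosen after values were seen, the class II-low monocytes held 216 and 418 CPM, a log2 ratio of 0.95 (0.42 to 1.50), and the class II-high monocytes 307 and 337 CPM (0.13, -0.49 to 0.74). Neutrophil markers were higher in the KO monocyte gate, at 7.27 CPM against 269.5 CPM (3 of 5 at 0 in WT and 2 of 5 in KO), and their part in the Csf2rb value was not tested.

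Other myeloid cells gave the highest Csf2rb ratio. They held 44 UMIs at 219 CPM (159 to 294) in WT and 32 UMIs at 528 CPM (361 to 746) in KO, a log2 ratio of 1.27 (0.57 to 1.96). It was the 1 of 3 members past 2-fold in this gate, in which 12.9% of 1863 genes were. The ratio was 0.38 (-0.23 to 0.96) when 2 markers sufficed for a gate and 0.11 (-0.52 to 0.73) when mixed cells were kept, so it rested on where the gate was set. The 7 dendritic markers in this gate summed to 443 CPM in WT (0 at 0) and 149 CPM in KO (3 at 0), and their part in the ratio was not tested. Most of these cells expressed MHC class II genes, 73.8% in WT and 67.4% in KO. Ungated cells with MHC class II genes, 91 in WT and 34 in KO, held 56 and 24 Csf2rb UMIs (393 and 547 CPM). Counting error alone could give that difference, since its log2 interval (-0.28 to 1.19, around 0.48) included 0. Csf1r in these ungated cells rested on 4 UMIs per library (28.1 and 91.1 CPM). Its log2 interval, -0.73 to 4.12, was too wide to tell a direction.

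In WT macrophages Csf2rb was lower at each step from 0 to 2 resident markers, with intervals apart. The WT intervals at 2 and at 3 or more markers overlapped, so their order cannot be told. In KO macrophages the value at 1 marker was highest, but its interval overlapped those at 0 and 2 markers. From 0 to 3 or more markers the Csf2rb level was 202, 112, 54.8 and 44.1 CPM in WT and 99.2, 162, 92.3 and 67.0 CPM in KO. At 0 markers KO lay below WT, with a log2 ratio of -1.03 (-1.87 to -0.26), and at 3 or more it lay above, with 0.60 (0.01 to 1.22). Bins of the macrophage gate thus differed in both directions between the libraries. Csf2ra had 165, 173, 158 and 116 CPM in WT and 176, 139, 96.7 and 139.8 CPM in KO.

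The share of cells with 2 receptor transcripts cannot exceed the share with either. In macrophages at 2000 UMIs, Csf2ra was detected in 24.8% of WT and 23.0% of KO cells, and Csf2rb in 12.3% and 13.3%. Whether pairs met more or less often than these shares alone would give was not tested. In macrophages thinned to 2000 UMIs, 4.88% of WT and 5.69% of KO cells held both Csf1r and Csf2rb, 11.2% and 11.8% held both Csf1r and Csf2ra, and 2.89% and 3.55% held both Csf2ra and Csf2rb. At such sparse counts a cell without a UMI may still express the gene.

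Endothelial cells were the only non-myeloid gate of the 3 examined with Csf2rb above 10 CPM. They held 19 UMIs at 52.0 CPM (31.3 to 81.2) in WT and 9 at 75.7 CPM (34.6 to 144) in KO, a log2 ratio of 0.54 (-0.79 to 1.76). Csf2ra had 1 UMI in each library. The 8 myeloid markers in these cells summed to 84.8 CPM in WT and 118 CPM in KO (3 and 4 of 8 at 0). The 7 macrophage markers summed to 24.6 and 143 CPM (2 of 7 at 0 in each), and the 6 monocyte markers to 134 and 555 CPM (1 and 3 of 6 at 0). In fibroblasts the monocyte markers summed to 1082 and 1249 CPM, so that list was not particular to the myeloid gates. C1qa had 2 and 1 UMIs and Spi1 0 and 0. Free RNA, estimated from melanoma markers at the whole library's composition, came to 0.540 CPM of Csf2rb in WT and 0.473 in KO endothelial cells. That estimate does not single out myeloid RNA, whose part in the Csf2rb value was not tested. Csf2rb alone of the members had at least 20 UMIs in this gate, and it was not past 2-fold, where 13% of 3589 genes were. The KO gate held 27 cells, so its precision was low.

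Csf2rb and its neighbour Csf2rb2, 20030 bases apart, share 95.2% of 2628 aligned coding bases. In the last 500 bases of the longest transcripts, nearer to what a 3′ assay reads, they share 82.7% of 473 aligned bases. Some 3′ reads could therefore be lost or assigned to the wrong copy. In the last 500 bases of their coding transcripts, 68 of 1378 windows of 91 bases (the read length) of Csf2rb also occurred in Csf2rb2, which is 4.93%, and 0 windows of the other 4 members occurred in another gene. Csf2rb2 had its own levels, 24.3 and 30.5 CPM in macrophages and 53.3 and 56.6 CPM in monocytes, with log2 ratios of 0.33 (-0.25 to 0.91) and 0.09 (-0.92 to 1.06). In monocytes with Xist and no Y-linked UMI, 8 UMIs in WT and 5 in KO gave 1.72 (-0.24 to 3.51).

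**Figure D4:**
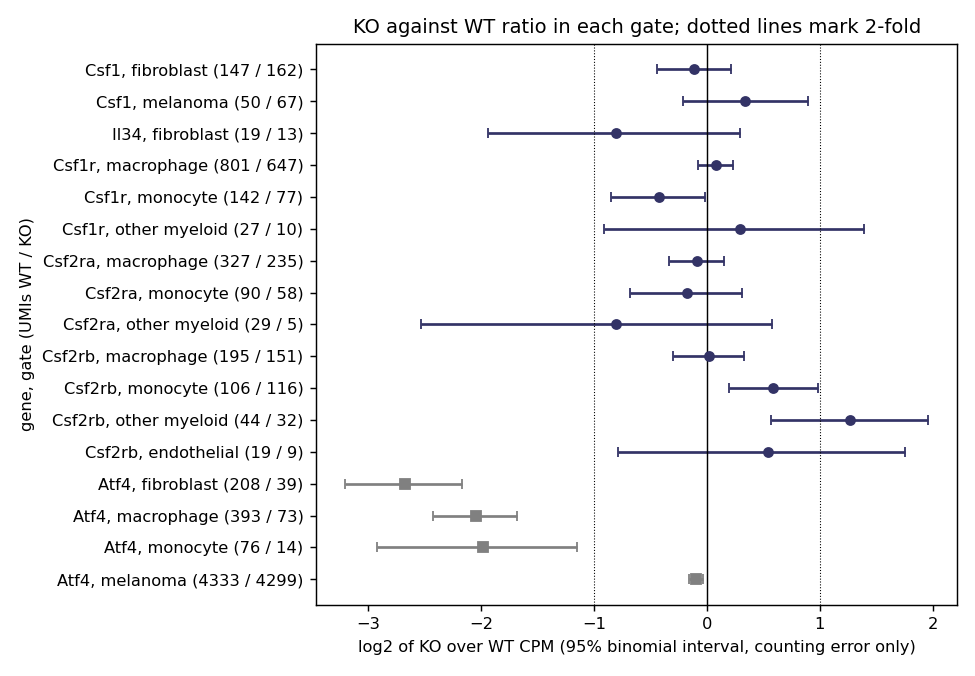
Points give the log2 of the KO over WT CPM for each gene and gate with 95% binomial intervals that cover counting error only, dotted lines mark 2-fold, and squares show Atf4. Csf1 in fibroblasts (-0.11) and Csf1r in macrophages (0.08) have intervals that include 0, Csf2rb in monocytes (0.59) lies above it, and Atf4 lies below -1 in the host gates shown.

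Regulators of Csf1r were taken as a list of 8 transcription factors. In macrophages 0 of the 8 passed 2-fold, in a gate where 5.66% of genes did, and so few genes make that count uninformative. Their median log2 ratio was 0.09, where the median over all genes tested was -0.0048. Spi1, which encodes PU.1, was 359 CPM in WT and 444 CPM in KO macrophages, a log2 ratio of 0.30 (0.16 to 0.45). In monocytes it was 431 and 296 CPM, a log2 ratio of -0.54 (-0.93 to -0.17), so the ratios of Spi1 had opposite signs in the 2 gates. Cebpa, which encodes a C/EBP factor of myeloid cells, was 73.7 and 52.8 CPM in macrophages, -0.48 (-0.87 to -0.10).

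Of the signalling genes below CSF1R, 1 of 9 passed 2-fold in macrophages, downward, with a median of -0.18, in a gate where 5.66% of genes passed. In monocytes the median of 8 genes was -0.31, against -0.012 over all genes tested. That gene was Stap1, an adaptor protein of tyrosine kinase signalling, with 52.6 CPM in WT against 25.8 in KO, a log2 ratio of -1.03 (-1.56 to -0.51). Stap1 was also lower in KO monocytes, with 201 CPM in WT against 99.8 in KO, a log2 ratio of -1.01 (-1.66 to -0.39). Pik3r1, the regulatory subunit of PI3-kinase, was 39.5 CPM in WT and 62.2 CPM in KO macrophages, 0.65 (0.23 to 1.08).

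Genes below the common beta chain gave 0 of 7 past 2-fold in macrophages, with a median of -0.07, and 0 of 5 in monocytes, with a median of 0.15, in gates where 5.66% and 8.83% of genes passed. With so few genes, counts of 0 say nothing about the list. They include Cish, Socs1, Socs3 and Pim1, which STAT5 or related factors induce. Pim1, a kinase, was 177 and 169 CPM in macrophages and 366 and 406 CPM in monocytes. In fibroblasts, where 11.3% of genes passed, 1 of 8 did, Stat5a, with 8 UMIs in WT and 34 in KO, a log2 ratio of 1.83 (0.69 to 3.16).

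The other cytokines of these families were scarce. Il3 had 0 UMIs in both libraries, and Il5 had 2 in WT and 0 in KO. Csf2, which encodes GM-CSF, had 1 UMI in WT and 9 in KO, and Csf3, which encodes G-CSF, had 41 and 68. Both fall outside the rule for named genes in fibroblasts and were singled out after their values were seen: Csf2 had 0 UMIs in WT and 7 in 6 cells in KO fibroblasts, and Csf3 had 0 and 16 in 8 cells. With the WT count of Csf3 set to 3 UMIs over the gate, the log2 ratio was 2.16, with a lower counting limit of 1.69. Of the 7 Csf2 UMIs, 5 lay in fibroblasts with a Y-linked UMI and no Xist.

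Il3ra, the alpha chain of the IL-3 receptor, was lower in KO macrophages (35.0 and 21.1 CPM, log2 ratio -0.73, -1.34 to -0.14) and higher in melanoma cells of KO hosts (4.08 and 9.65 CPM, 1.24, 0.86 to 1.64). Trem2, a macrophage receptor also reported to bind IL-34, was 657 and 685 CPM in macrophages, 0.06 (-0.05 to 0.17). Kitl, the ligand of the related receptor KIT, was lower in KO macrophages, with 38 and 13 UMIs and a log2 ratio of -1.16 (-2.20 to -0.22). It was not typical of its list, since the median of the 3 genes tested there was 0.67. In macrophages 5.66% of all genes tested passed 2-fold. Pdgfa, a ligand of the related PDGF receptors, was 15.8 CPM in melanoma cells of WT hosts and 35.0 CPM in those of KO hosts, 1.15 (0.95 to 1.35). The median of the 4 genes of the same list tested in melanoma cells was 0.21, and 4.84% of all genes tested there passed 2-fold.

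Across 12 sums (gates by library, at least 20 cells each), the genes most like a member in log2(CPM + 10) were ranked among 10032 genes by Pearson correlation, as a description, since the sums share libraries and depth. Closest to Csf1r were Clec4a1, Ctsc, Ccl3, Slc11a1 and Lilr4b, with r from 0.987 to 0.994. For Csf2rb they were Srgn, Cyth1, Mxd1, Chd7 and Pitpna, with r from 0.968 to 0.981. Csf1 went with the fibroblast genes Sfrp2, Dpt, Tmem45a, Ogn and Tnxb, with r from 0.980 to 0.984. Il34, on 35 UMIs, went with Thy1, Tubb2b, Pcdh19, Cygb and Col8a1, with r from 0.978 to 0.984.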

How the data were processed

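Tumour cells were profiled with a droplet 3′ single-cell assay. The authors aligned reads to GRCm38 with an Ensembl annotation in Cell Ranger 3.1.0, and what they deposited is the unnormalized UMI count of each gene in each barcode. The WT matrix held 6304 barcodes and 38417113 UMIs, and the KO matrix 5474 and 38290024. The study's filter was applied (200 to 5000 genes, at most 7.5% mitochondrial UMIs).

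Cells were gated on detected markers: at least 3 for a host lineage, 4 for melanoma, and 2 for a myeloid subset, the highest fraction winning. Host-gated cells with a melanoma marker share above 0.2 of the melanoma median were mixed. Members, lists and gates were chosen with earlier results of these data known. UMIs were summed per gate and library and given as CPM with exact Poisson intervals, ratios with exact conditional binomial intervals and shares with Clopper-Pearson intervals, all at 95%. A count of 0 was set to 3 in a ratio, and no ratio was formed when both counts were 3 or less. Genes with at least 20 UMIs in a gate entered the counts past 2-fold. The step was tested on simulated data. Named genes were the members, listed pathway genes with at least 20 UMIs in the gate, gate markers, and the 5 genes most correlated with a member (at least 200 UMIs, gate markers left out). Doublets (114 WT and 50 KO) were called with Scrublet in scanpy 1.11.5 and removed only in an alternative. Clusters for an alternative were made with Seurat 5.3.0, TMM factors (as an alternative scaling) with edgeR 4.0.16, and the rest with Python 3.11.15, numpy 2.4.6, scipy 1.17.1 and Biopython 1.88. Cells are not replicates, so no test between genotypes was run. A total of 11 alternatives were planned. Some items of the pathway lists, and the list counts that turn on them, are not reported here.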

Additional observations from a re-analysis of the deposited data

How the results depend on the processing

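Of the 104 alternative values of the main comparisons, ratios and shares together, 101 stayed within the counting interval of the reported value. Staying within is a weak check, since some intervals were wide and some settings left a gate's counts unchanged. A reversed ratio could be called only where the reported interval left out 0. Among the main ratios that was Csf1r in monocytes alone, and its sign did not change. The 3 that moved came from restricting host cells to those with Xist and no Y-linked UMI: log2 ratios of -0.34 for Csf1r and -0.53 for Csf2rb in macrophages, and 0.43 for Csf1 in fibroblasts. Csf1r in monocytes ranged from -0.72 to -0.36 over its alternatives, Il34 in fibroblasts from -1.16 to -0.38, and Csf1 in melanoma cells from 0.29 to 0.67. The share of Csf1 UMIs in fibroblasts ranged from 55.6% to 64.9% in WT and from 57.3% to 64.9% in KO. Csf2rb in monocytes ranged from 0.40 to 0.96. Of 1471 gated macrophages 1200 were in macrophage clusters (1291 cells), and of 545 gated monocytes 478 were in monocyte clusters (1050 cells). Csf2rb in other myeloid cells ranged from 0.11 to 1.72, and Csf2ra in monocytes from -0.91 to 0.11. Csf1 in endothelial cells, with 1 UMI a library, gave no ratio under any setting, clustering gave no class for other myeloid cells, and free RNA and sex-linked restrictions were not applied to melanoma cells. Keeping mixed cells, pairing Y-linked KO cells with Xist WT cells, thinning to 1000 UMIs and the MHC class II split were chosen after seeing the data. No paired analysis was possible because there was 1 library of each genotype, and for the same reason no replicate could be left out.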

Other observations

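Taken over all kept cells, with no gate, each receptor was lower in KO, with log2 ratios of -0.47 (-0.60 to -0.34) for Csf1r, -0.49 (-0.68 to -0.31) for Csf2ra and -0.47 (-0.66 to -0.28) for Csf2rb. Over all myeloid cells together the ratios were 0.07 (-0.07 to 0.21), -0.13 (-0.35 to 0.08) and 0.23 (0.01 to 0.46). Macrophages were 21.1% of kept cells in WT and 18.4% in KO, and melanoma cells 43.7% and 52.7%. In the whole-library values fewer cells of a type and less RNA per cell cannot be told apart.

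The mixed cells, left out above, held Csf1r at 79.8 and Csf2rb at 53.9 CPM in WT, against 39.7 and 28.6 CPM in KO. Of the mixed cells, 120 WT and 57 KO cells would have been macrophages and 128 and 51 monocytes. They carried 73 and 34 Csf1r UMIs as macrophages, and 55 and 14 as monocytes.

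Csf3 in endothelial cells had 2 UMIs in 1 WT cell and 7 in 3 KO cells. Macrophages held 23 and 25 UMIs of it, at 10.3 and 14.7 CPM. These counts are too few for a statement on direction in endothelial cells, where 5 of the 7 KO UMIs lay in a single cell.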
